A study of Mus musculus with 6 samples.

Results

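The genes described here encode the enzymes that hydroxylate and cross-link collagen, together with ERO1, an oxidase that drives disulfide bond formation in the endoplasmic reticulum (ER). Of 10 listed genes, 9 had a row in the deposited gene tables, found by an exact match of the gene symbol among 25330 rows: the prolyl 4-hydroxylase α subunits P4ha1, P4ha2 and P4ha3, the lysyl hydroxylases Plod1, Plod2 and Plod3, the lysyl oxidase-like genes Loxl1 and Loxl2, and Ero1l, which newer annotations call Ero1a. Lox was not analysed here. All RNA came from AML12 cells, a mouse hepatocyte line labelled wild type and originally established from the liver of a mouse carrying a transforming growth factor α transgene, so both groups are cultures of a single line. The 3 control libraries were from cells kept under normoxia at 21% O2 in medium with 10% fetal bovine serum, an insulin, transferrin and selenium supplement and 40 ng/ml dexamethasone. The 3 H/R libraries (labelled H6R2) were from cells grown in this same medium. These cells were then moved to medium without serum and glucose, held at 1% O2 for 6 h and reoxygenated for 2 h. Low oxygen, reoxygenation and medium therefore cannot be told apart in this comparison. The labels do not say whether libraries of a group came from separate cultures, and p-values therefore measure the spread between these libraries, which may be technical.

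Collagen chains are modified while they are still in the ER. Prolyl 4-hydroxylase, assembled from catalytic α subunits and protein disulfide isomerase (P4hb) as the β subunit, makes the 4-hydroxyproline that holds the triple helix together at body temperature. Lysyl hydroxylases make the hydroxylysine that carries sugars and anchors the strongest cross-links. Both enzyme families use molecular oxygen, iron, 2-oxoglutarate and ascorbate. Outside the cell, the copper enzymes of the lysyl oxidase family turn lysines into reactive aldehydes that join collagen or elastin molecules. ERO1 re-oxidises protein disulfide isomerase and passes the electrons to oxygen. Several of these genes are known targets of hypoxia-inducible factors, and in liver most fibrillar collagen is made by stellate cells rather than hepatocytes.

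Library totals ranged from 20438746 to 21854790 counts. Counts were scaled with edgeR's TMM factors, and 14020 genes with enough counts were tested. Pairs of replicates differed by more than sampling noise, with a chi-square per degree of freedom of 15.5 and 16.2 for the pairs that include control replicate 1 and from 2.19 to 5.60 for the others. The liver gene Fga, a fibrinogen chain, had 61 counts in control replicate 1 and 0 in the other 5 libraries. The liver genes Fgb, Apoa2, Serpina1a and Cps1 had 52, 60, 61 and 18 counts there and at most 1 in any other library. The hepatocyte factor gene Hnf4a had a mean normalised count of 2912 in control and 2187 in H/R libraries, whereas the hepatocyte markers Tat and Asgr1 had at most 3 counts in any library. Summed over each fixed marker list, hepatocyte markers had from 234 to 271 CPM (counts scaled to a common library total) in control and from 141 to 146 in H/R libraries. All 7 tested genes of that list were lower at an adjusted p under 0.05, and 3 of them by at least 2-fold, namely Ttr (8.41-fold), Alb (7.19-fold) and Trf (2.79-fold). Cholangiocyte markers had from 1520 to 1710 CPM in control and from 2570 to 2670 in H/R libraries, where Krt19, Krt7 and Sox9 were higher and Spp1 was lower (log2 fold change -0.57, adjusted p = 2.63e-13 from edgeR's test). Of 10 stellate cell and fibroblast markers, 6 (Acta2, Pdgfrb, Lrat, Reln, Dcn and Lum) had at most 3 counts in any library, and the list summed to between 1.13 and 2.38 CPM. Endothelial markers summed to between 1.95 and 3.13, with 5 of 8 at most at 3 counts. The macrophage and blood cell list went from between 3.14 and 3.76 to between 8.61 and 10.4, mainly through Cd68, while Ptprc, Adgre1 and Clec4f stayed at 3 counts or fewer. The part of these shifts in the results below was not tested, and in bulk RNA fewer cells of a type and less RNA per cell cannot be told apart.

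After H/R, 4 of the 9 genes were higher by at least 2-fold at an adjusted p under 0.05, namely Ero1l, P4ha1, Plod2 and P4ha2, and none was lower. The same rule called 4.25% of all tested genes higher, 4.27% lower and 8.52% in either direction. Of the calls over all genes, 49.9% were higher with TMM scaling, 41.3% when upper quartiles and 37.0% when library totals set the scale, and the 4 genes were called under each, and without control replicate 1. Loxl2 also passed the adjusted p but rose by less than 2-fold, while Plod1 and Plod3 did not pass it. At an adjusted p alone, 62.8% of tested genes passed, 31% of all as higher and 31.8% as lower. P4ha3 and Loxl1 had 3 counts or fewer in every library and were not tested. The 7 tested genes each had at least 18 counts in every library of both groups, so none of them entered the test through its H/R level alone. In 6 of the 7 the H/R libraries lay entirely above or entirely below the control libraries, 5 of them above and Plod3 below. The groups did not overlap for 65.9% of all tested genes, with 32.5% above and 33.5% below.

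**Figure D1:**
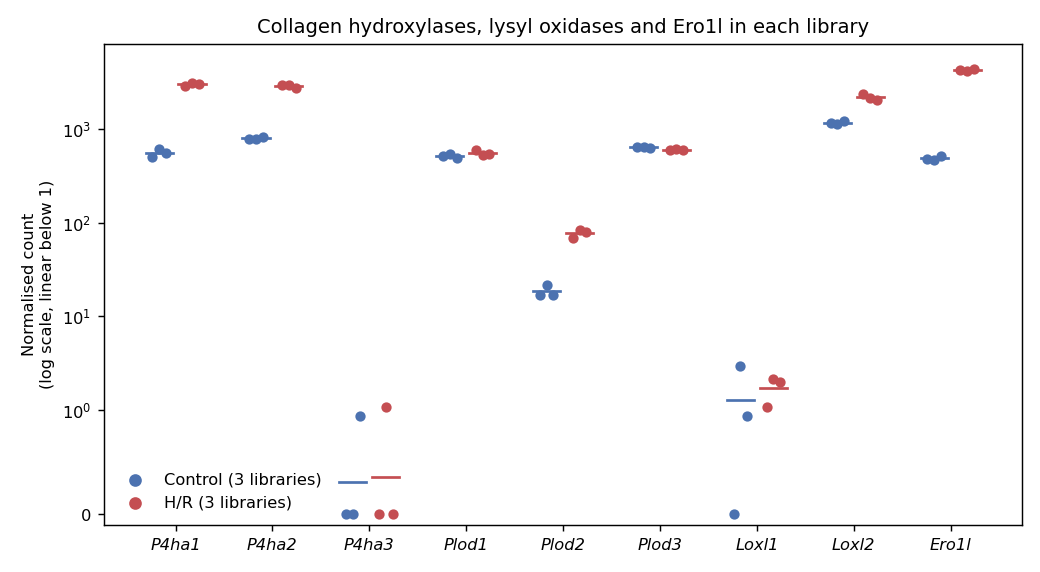
Normalised count (vertical axis, log scale that is linear below 1) of each of the 9 genes in the 3 control (blue) and 3 H/R (red) libraries, with a horizontal line at each group mean. Ero1l, P4ha1, P4ha2, Plod2 and Loxl2 separate the groups upwards, Plod1 and Plod3 lie at nearly the same height in both, and P4ha3 and Loxl1 lie at or near 0.

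The DNA just upstream of the start sites of P4ha1, P4ha2 and Ero1l, chosen because these genes rose, is shown. It stands beside that of Plod1, which did not pass the test. RefSeq promoter windows on GRCm38.p6 were found for 6 of the 9 genes (Plod2, Loxl1 and Loxl2 had none). Each sequence is on the gene's own strand and ends at the base before the start site. Only the stretch free of annotated exons in GENCODE M21 is given, 250 bases for 3 genes and 130 for Ero1l. For Plod3, which did not pass the test either, this stretch was 0 bases, so its sequence is not shown. Capitals mark ACGTG or GCGTG, the core letters that hypoxia-inducible factors bind, or their reverse complements CACGT and CACGC. No marked match overlaps another. The windows are chr10:59323046-59323295 (plus strand), chr11:54100674-54100923 (plus), chr14:45318573-45318702 (minus) and chr4:147936777-147937026 (minus), in the order of the lines. The P4ha2 window lies inside the gene as the deposited tables draw it, which starts further upstream at 54100095.
P4ha1: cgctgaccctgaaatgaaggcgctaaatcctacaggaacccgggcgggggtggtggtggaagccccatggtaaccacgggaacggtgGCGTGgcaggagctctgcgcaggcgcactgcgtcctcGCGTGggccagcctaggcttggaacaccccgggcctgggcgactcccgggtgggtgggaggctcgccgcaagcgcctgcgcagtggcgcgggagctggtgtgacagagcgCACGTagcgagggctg
P4ha2: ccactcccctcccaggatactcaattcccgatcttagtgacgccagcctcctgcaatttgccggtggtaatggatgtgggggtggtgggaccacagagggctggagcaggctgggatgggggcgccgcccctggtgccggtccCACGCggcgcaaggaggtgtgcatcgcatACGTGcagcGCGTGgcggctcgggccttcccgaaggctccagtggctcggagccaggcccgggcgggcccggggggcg
Ero1l: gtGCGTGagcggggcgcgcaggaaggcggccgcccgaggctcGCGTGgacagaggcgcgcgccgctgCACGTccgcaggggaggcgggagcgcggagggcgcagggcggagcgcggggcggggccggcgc
Plod1: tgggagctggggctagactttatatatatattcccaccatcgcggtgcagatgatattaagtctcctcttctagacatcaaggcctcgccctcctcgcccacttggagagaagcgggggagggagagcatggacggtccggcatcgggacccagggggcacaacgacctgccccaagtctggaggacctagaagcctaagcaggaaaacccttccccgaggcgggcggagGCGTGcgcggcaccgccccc

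P4ha1, P4ha2 and Ero1l each held 3 matches, of which 1 was ACGTG and 2 were GCGTG. In P4ha1 the ACGTG match lay on the opposite strand, between 16 and 12 bases before the start site. In P4ha2 it lay between 78 and 74 bases before the start, close to a GCGTG at 69 to 65. In Ero1l it was 63 to 59 bases upstream, on the opposite strand. Plod1 held a single GCGTG, 20 to 16 bases upstream. Counted over the full 250 bases, Plod3 held 4 matches although its level did not pass the test, and P4ha3, which was at the floor, held 0. Among all 32851 RefSeq windows of 250 bases, 38.6% held at least 1 match, 16.6% held ACGTG and 6.58% held 3 or more. The shown sequences are rich in G and C, 69.6% for P4ha1, 70.0% for P4ha2, 83.8% for Ero1l and 61.6% for Plod1, against a median of 52.4% over all windows. A match describes these letters only.

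Ero1l (chromosome 14, 45283092 to 45318572, minus strand) showed the largest change of the 9 genes. In the order of replicates 1 to 3, used throughout, its normalised count was 472, 468 and 507 in control libraries and 4220, 4140 and 4325 in H/R libraries. The lowest H/R library thus stood far above the highest control library. The group means were 482 ± 21.8 and 4228 ± 92.7 (SD, n = 3 each), a log2 fold change of 3.13 ± 0.051 (SE) or 8.76-fold, with an adjusted p of 1.7e-32 (quasi-likelihood test of edgeR, Benjamini-Hochberg adjustment). By log2 fold change it ranked 32 and by p it ranked 3 among the 14020 tested genes. The exact two-sided permutation test gave p = 0.1, the smallest p that 3 against 3 libraries allow, and the same value for P4ha1, P4ha2, Plod2, Loxl2 and Plod3.

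The other ERO1 oxidase gene, Ero1lb, also rose, but by less. It had a normalised count of 100, 103 and 128 in control and 186, 141 and 137 in H/R libraries, a log2 fold change of 0.48 ± 0.135 (SE, adjusted p = 0.00243 from edgeR's test). In RPKM, which divides counts by gene length and library total so that levels of different genes can be compared, Ero1l made up 80.8% ± 1.41 of the ERO1 pair in control and 96.3% ± 0.638 in H/R libraries (SD, n = 3 each). The share ranged from 79.2% to 81.9% and from 95.6% to 96.8%, without overlap (exact permutation p = 0.1, adjusted 0.171 over 12 shares).

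Among the α subunits of prolyl 4-hydroxylase, P4ha1 and P4ha2 both rose and P4ha3 was at the floor. P4ha1 (chromosome 10, 59323296 to 59373304, plus strand) encodes the α subunit found in most cell types. Its normalised count was 506, 610 and 555 in control and 2843, 3067 and 2977 in H/R libraries. All H/R values lay above all control values, and control replicate 1 was the lowest. The log2 fold change was 2.41 ± 0.056 (SE, adjusted p = 5.71e-27 from edgeR's test), or 5.32-fold, at rank 66 by log2 fold change.

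P4ha2 (chromosome 11, 54100095 to 54131665, plus strand) encodes an alternative α subunit prominent in cartilage and endothelium. Its normalised count was 775, 776 and 812 in control and 2956, 2913 and 2725 in H/R libraries. The control values were close together and well below the H/R values. The log2 fold change was 1.86 ± 0.050 (SE, adjusted p = 2.88e-26 from edgeR's test), or 3.64-fold. P4ha3 had 0, 0 and 1 counts in control and 0, 1 and 0 in H/R libraries, so a change was not detectable at this depth and no fold is given.

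Both subunits started from a similar level and moved apart. P4ha1 stood at 99.0%, 119% and 104% of the RPKM of P4ha2 in control and at 146%, 160% and 166% in H/R libraries. As a share of all α subunit RPKM, P4ha1 went from 51.6% ± 2.41 to 61.1% ± 1.56 (SD, n = 3 each; exact permutation p = 0.1, adjusted 0.171). Summed over the 3 genes, α subunit RPKM was 12.8 ± 0.762 in control and 53.7 ± 1.19 in H/R libraries, 4.19 times as high. With TMM scaling, which the fold changes above use, this ratio was 4.51.

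The β subunit gene P4hb, which is named because the ratio turns on it, is expressed far above the α subunits. Its normalised count was 22370, 21677 and 21657 in control and 25447, 25462 and 24860 in H/R libraries, a log2 fold change of 0.21 ± 0.044 (SE, adjusted p = 1.36e-04 from edgeR's test). P4ha1 and P4ha2 together therefore went from 3.16%, 3.60% and 3.50% of the RPKM of P4hb in control to 13.1%, 13.6% and 13.4% in H/R libraries. The same ratio for Ero1l went from 1.43% ± 0.0801 to 10.9% ± 0.380 (SD, n = 3 each). Neither ratio overlapped between groups (exact permutation p = 0.1 for each).

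**Figure D2:**
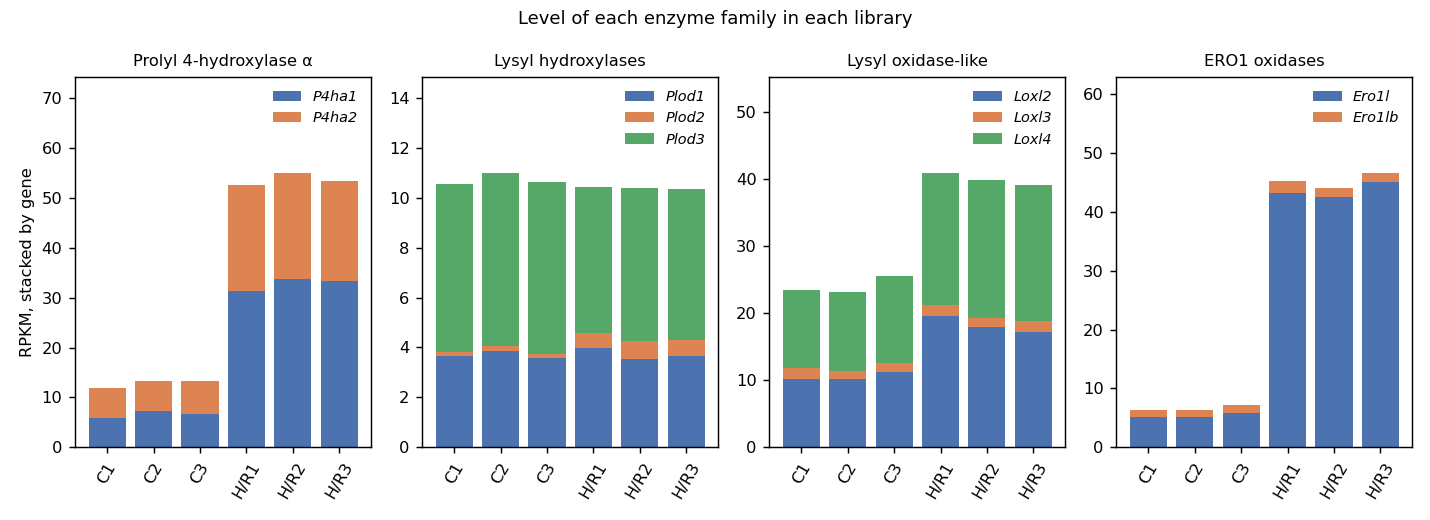
RPKM (vertical axis, linear from 0, a separate scale per panel) of each enzyme family in control libraries 1 to 3 (C1 to C3) and H/R libraries 1 to 3, stacked by gene; P4ha3 and Loxl1 are too low to draw. The α subunit and ERO1 bars are several times taller after H/R, the lysyl hydroxylase bars keep a mean height of 10.7 and 10.4 RPKM, and the lysyl oxidase-like bars rise from between 23.1 and 25.6 to between 39.2 and 40.9 RPKM.

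The lysyl hydroxylases did not move as a group. Plod2 (chromosome 9, 92542223 to 92608428, plus strand), the isozyme known for hydroxylating the collagen telopeptides, was the least expressed and the only isozyme called. It had 18, 22 and 18 counts in control and 64, 78 and 79 counts in H/R libraries. Every H/R library had more counts than every control library. Its log2 fold change was 2.06 ± 0.218 (SE, adjusted p = 4.21e-10 from edgeR's test), or 4.17-fold. This standard error was the largest of the 7 tested genes. Of its exon length, 6.42% is shared with Gm38391 on the opposite strand, and whether counting used the strand is not given in the sources used here.

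Plod1 (chromosome 4, 147909753 to 147936767, minus strand) acts on the helical part of collagen and is the gene of kyphoscoliotic Ehlers-Danlos syndrome. Its normalised count was 510, 535 and 487 in control and 596, 527 and 535 in H/R libraries, and the groups overlapped. The log2 fold change of 0.11 (95% interval -0.03 to 0.25, adjusted p = 0.154 from edgeR's test) did not pass the threshold.

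Plod3 (chromosome 5, 136987019 to 136996648, plus strand), which also transfers sugars to hydroxylysine, had a normalised count of 632, 643 and 625 in control and 587, 614 and 593 in H/R libraries. The H/R libraries all lay slightly below the controls. The log2 fold change was -0.08 (95% interval -0.21 to 0.04, adjusted p = 0.242 from edgeR's test). Scaled by library totals alone it was -0.19 with an adjusted p of 0.00987 in edgeR's test, and over 15 alternative fits the adjusted p ranged from 0.00987 to 0.443. Exons of Znhit1 on the opposite strand and of Mir702 cover 11.9% of its exon length.

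Within the lysyl hydroxylase family, the RPKM share of Plod2 went from 1.56% ± 0.177 to 6.29% ± 0.661 and that of Plod3 from 64.0% ± 0.852 to 58.0% ± 1.49 (SD, n = 3 each; exact permutation p = 0.1 and adjusted 0.171 for each). The share of Plod1 was 34.5% ± 0.709 and 35.8% ± 2.15, with overlapping groups (exact permutation p = 0.4). Summed RPKM of the family was 10.7 ± 0.232 in control and 10.4 ± 0.0456 in H/R libraries, 0.969 times as high. With TMM scaling this ratio was 1.04, so no direction is given for the sum.

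In the lysyl oxidase family, Loxl2 rose moderately and Loxl1 was at the floor. Loxl2 (chromosome 14, 69609068 to 69695834, plus strand) encodes a secreted oxidase best known for cross-linking type IV collagen of basement membranes. Its normalised count was 1144, 1130 and 1210 in control and 2347, 2136 and 2022 in H/R libraries. The groups were clearly apart, with H/R replicate 1 the highest. The log2 fold change was 0.90 ± 0.052 (SE, adjusted p = 2.1e-16 from edgeR's test), or 1.87-fold. Its 95% interval, 0.79 to 1.01, includes the 2-fold threshold, so Loxl2 lies just outside the call. Exons of Gm27177 on the opposite strand and of Mir6950 cover 5.7% of the Loxl2 exon length. Loxl1, which is tied to elastic fibres, had 0, 3 and 1 counts in control and 1, 2 and 2 in H/R libraries.

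Loxl4 and Loxl3 complete the family in these tables. Loxl4 had a normalised count of 1006, 1014 and 1095 in control and 1831, 1910 and 1854 in H/R libraries. It too was higher in every H/R library, with a log2 fold change of 0.84 ± 0.050 (SE, adjusted p = 1.42e-16 from edgeR's test), or 1.80-fold. Loxl3 had values between 110 and 157 in control and between 138 and 169 in H/R libraries (log2 fold change 0.22, adjusted p = 0.128 from edgeR's test). Exons of Htra2 on the opposite strand cover 11.6% of the Loxl3 exon length. The Loxl2 share of family RPKM was 43.8% ± 0.258 in control and 45.6% ± 2.10 in H/R libraries and that of Loxl4 50.2% ± 0.798 and 50.4% ± 2.09 (SD, n = 3 each; exact permutation p = 0.2 and 1.0). The differences in share were within the H/R spread for both genes. The Loxl3 share was 7.05%, 5.04% and 5.81% in control and 3.98%, 3.41% and 4.31% in H/R libraries, without overlap (exact permutation p = 0.1, adjusted 0.171).

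Placed side by side per length, the order of the genes differed between the groups. In control libraries mean RPKM was 10.5 for Loxl2, 6.86 for Plod3, 6.63 for P4ha1, 6.19 for P4ha2, 5.36 for Ero1l, 3.70 for Plod1 and 0.168 for Plod2. The range of P4ha1 overlapped those of Plod3 and P4ha2, so its place between them is not resolved, while every Plod3 value lay above every P4ha2 value. In H/R libraries it was 43.6 for Ero1l, 32.8 for P4ha1, 20.9 for P4ha2, 18.3 for Loxl2, 6.02 for Plod3, 3.72 for Plod1 and 0.653 for Plod2, and no neighbours overlapped in range. Ero1l thus moved from below Loxl2, Plod3, P4ha1 and P4ha2 to the top of this order. Plod2 remained the lowest of the tested genes in both groups, below 1 RPKM.

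**Figure D3:**
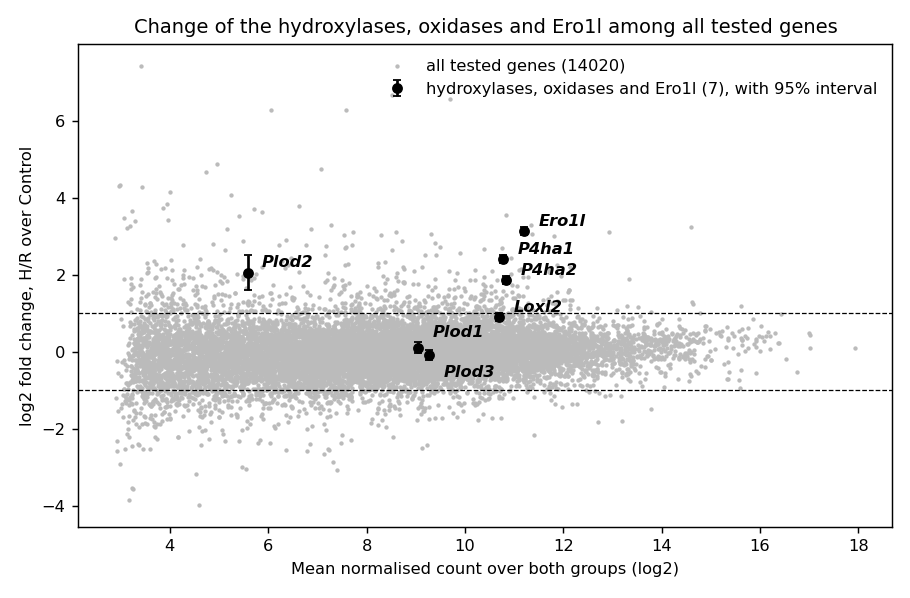
Log2 fold change of H/R over control (vertical axis) against the log2 of the mean normalised count (horizontal axis) for all 14020 tested genes (grey) and the 7 tested hydroxylases, oxidases and Ero1l (black, bars are 95% intervals); dashed lines mark a 2-fold change. Ero1l, P4ha1, P4ha2 and Plod2 lie above the upper line, Loxl2 just under it, and Plod1 and Plod3 near 0.

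Other genes of the pathway were read from 6 lists. Of the collagen chaperones and other modifying enzymes, 18 of 20 had a row and 14 were tested; 1 was called higher and none lower. The median log2 fold change was -0.05, beside -0.01 for all tested genes. The called gene was Tmem38b, an ER cation channel mutated in brittle bone disease. It had a normalised count of 129, 132 and 146 in control and 280, 247 and 301 in H/R libraries, a log2 fold change of 1.03 ± 0.106 (SE, adjusted p = 2.13e-10 from edgeR's test). It fell under 2-fold without control replicate 1 (0.99) or without H/R replicate 3 (0.96) and with library totals (0.92). At an adjusted p alone, 3 genes of the list were higher and 4 lower.

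Collagen chains are the substrates of the hydroxylases. Of the fibrillar chains, 10 of 11 had a row and 4 were tested. Of these 4, 2 were called lower and none higher, beside 4.27% of all tested genes called lower. At an adjusted p alone, 3 of the 4 were lower and none higher. The median log2 fold change was -0.67, beside -0.01 for all tested genes. Col27a1 had a normalised count of 1104, 1166 and 1048 in control and 547, 532 and 572 in H/R libraries, a log2 fold change of -1.01 ± 0.059 (SE, adjusted p = 1.54e-16 from edgeR's test). It lost the 2-fold call without control replicate 2 (-0.97) or H/R replicate 2 (-0.98). The other was Col11a2, outside the naming rule for its low level and named after its values were seen, with 11, 16 and 14 counts in control and 1, 2 and 3 in H/R libraries. It entered the test through its control level alone, and with at least 10 counts required in every library 2 fibrillar chains were tested and 1 was called. Col1a1, also named after its values were seen, had a mean of 10.2 normalised counts in control and 8.56 in H/R libraries. The type I and III chain genes Col1a2 and Col3a1 were too low to be tested.

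Of the other collagen chains and elastin, 17 of 19 had a row, 11 were tested and 1 was called higher. Col12a1, a chain that lies along collagen fibrils, had a normalised count of 130, 119 and 124 in control and 291, 272 and 318 in H/R libraries, a log2 fold change of 1.24 ± 0.104 (SE, adjusted p = 1.38e-12 from edgeR's test). At an adjusted p alone, 5 of the 11 were higher and 4 lower, and the median was 0.03. The basement membrane chains Col4a1 and Col18a1, named after their values were seen as the most abundant tested ones, had 106 and 139 RPKM in control and log2 fold changes of 0.21 and 0.22 (adjusted p = 1.3e-04 and 7.27e-05 from edgeR's test).

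In the list of extracellular maturation and cross-linking genes, 12 of 15 had a row, 10 were tested and none was called. Of these, 5 were higher and 1 lower at an adjusted p alone, with a median of 0.24. Loxl4, given above, and Fn1, the matrix protein fibronectin, had the smallest p. Fn1 had a normalised count of 4475, 4390 and 4712 in control and 7169, 6985 and 7017 in H/R libraries, a log2 fold change of 0.64 ± 0.041 (SE, adjusted p = 1.64e-15 from edgeR's test).

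For oxidative protein folding, the pathway of Ero1l, 22 of 24 listed genes had a row and 21 were tested. None was called, 6 were higher and 10 lower at an adjusted p alone, and log2 fold changes lay between -0.72 and 0.48 with a median of -0.10. The smallest p belonged to Vkorc1l1, a vitamin K epoxide reductase-like oxidase, and Tmx2, a membrane-bound member of the disulfide isomerase family. Vkorc1l1 had a normalised count of 527, 469 and 553 in control and 325, 334 and 326 in H/R libraries (log2 fold change -0.65, adjusted p = 5.46e-09 from edgeR's test). Tmx2 fell by 0.40 on the log2 scale (adjusted p = 1.79e-08 from edgeR's test), and 11.6% of its exon length overlaps other genes.

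Of 14 genes for the supply of cofactors (mainly ascorbate, 2-oxoglutarate and copper), all had a row and 12 were tested. In this list 1 gene was called higher and 1 lower, with a median of -0.02. At an adjusted p alone, 4 were higher and 2 lower. Slc2a1, the glucose transporter GLUT1, which also carries oxidised ascorbate, had a normalised count of 790, 772 and 803 in control and 6134, 6473 and 6466 in H/R libraries, a log2 fold change of 3.01 ± 0.047 (SE, adjusted p = 7.64e-33 from edgeR's test). Idh1, a cytosolic enzyme that makes 2-oxoglutarate, had 3642, 3858 and 3730 in control and 1733, 1655 and 1642 in H/R libraries, a log2 fold change of -1.16 ± 0.044 (SE, adjusted p = 8.98e-22 from edgeR's test). Both genes separated the groups completely.

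**Figure D4:**
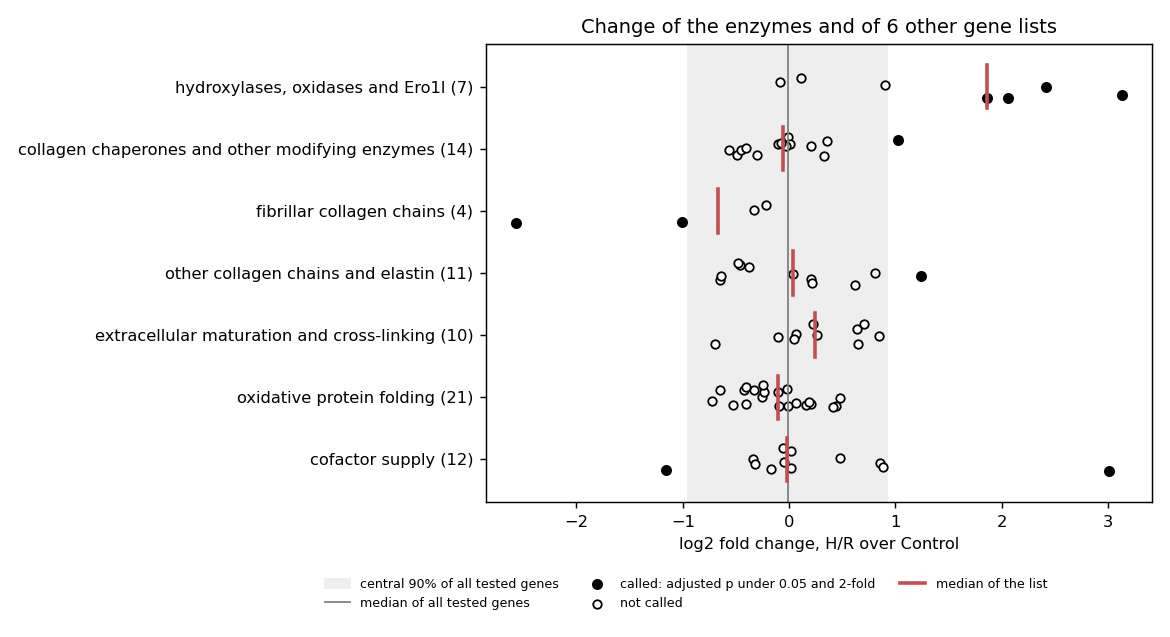
Log2 fold change of H/R over control (horizontal axis) of each tested gene of 7 lists (rows, with the number tested); filled points are called at an adjusted p under 0.05 and 2-fold, red bars are list medians, and the grey band holds the central 90% of all tested genes (-0.95 to 0.92). Of the 7 hydroxylases, oxidases and Ero1l, 4 are filled and lie between 1.86 and 3.13, while the oxidative folding row holds no filled point.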

How the data were processed

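RNA was sequenced as stranded, paired-end mRNA libraries, 3 from control and 3 from H/R cells, and sample titles gave the group and replicate number. Per the labels, reads were trimmed with Trimmomatic 0.36 and counted with featureCounts of Subread 1.5.1. The study's methods name GRCm38 as the genome. The authors deposited unnormalized whole counts for each gene. The deposited RPKM follow from count, gene length and library total (largest relative error 1.13e-06). Gene coordinates come from these tables. No other column of sample values was used.

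The count test was edgeR 4.0.16 in R 4.3.3 (filterByExpr, TMM, robust glmQLFit and glmQLFTest), with Benjamini-Hochberg adjustment over 14020 genes. A gene was called at an adjusted p under 0.05 and a fold change of at least 2. A normalised count is the count scaled to the mean effective library size. Shares and ratios were tested with two-sided exact permutation tests (scipy 1.17.1), and shares adjusted over 12 of them. The ERO1 shares and the ratios to P4hb and between P4ha1 and P4ha2 were added after the values were seen. Genes with 3 counts or fewer in every library were taken as at the floor. The genes and the lists were chosen with earlier results of these data known. Named are all 9 genes and, per other list, up to 4 called genes with a mean normalised count of at least 10, by largest change, or the 2 with the smallest p where none qualified; Ero1lb, Loxl3, P4hb and others marked in the text were named beyond this. The fits were tested on simulated data. Alternatives used DESeq2 1.42.0 and limma 3.58.1.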

Additional observations from a re-analysis of the deposited data

How the results depend on the processing

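The 15 alternative fits gave 105 log2 fold changes for the 7 tested hydroxylases, oxidases and Ero1l, none of which reversed. Ero1l, P4ha1 and P4ha2 kept their calls in each of them, with ranges of 2.81 to 3.17, 2.15 to 2.48 and 1.61 to 1.90. Plod2 lost its call in a limma-trend fit on log2(RPKM + 1), where its value was 0.50, since a pseudocount of 1 exceeds its RPKM. The number called of the 9 was then 3, and 4 in the other fits. Loxl2 stayed under 2-fold throughout (0.74 to 0.95).

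Over all genes 1195 were called and 406 with log2(RPKM + 1). With 1 library left out the number was between 1211 and 1290. The share of higher calls was 49.9% with TMM, 41.3% for upper quartiles and 37.0% for library totals, which moved the median of all tested genes from -0.01 to -0.08 and -0.12. The 1 called collagen chaperone gene (Tmem38b) was lost (0 called) under both of these scalings and in both RPKM fits, and the count was between 0 and 1 with a library left out. The 2 called fibrillar chains became 1 with DESeq2, with at least 10 counts in every library and with log2(RPKM + 0.1), became 0 with log2(RPKM + 1), and numbered between 1 and 2 with a library left out. The 1 called other chain (Col12a1) became 0 in both RPKM fits. Among shares, only differences near 0 reversed with a library left out: Loxl4 ranged from -0.400 to 1.44 percentage points, Loxl1 from -0.0607 to 0.0328 and P4ha3 from -0.0471 to 0.00946.

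Libraries with the same number were not treated as pairs in the main fit, and the labels do not say whether they belong together. Deviations from group means correlated at -0.03, 0.00 and -0.01 for numbers 1, 2 and 3, and with the replicate block 1200 genes and 4 of the 9 were called. Depth limits P4ha3 and Loxl1, and counts of Plod2 are low.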
